A study of Mus musculus with 9 samples.

Results

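The mitochondrial respiratory chain passes electrons from succinate and NADH to oxygen, and ATP synthase uses the proton gradient that results. This account covers the nuclear genes for its complexes II to V in brown adipose tissue. The members were chosen by name: 4 genes of complex II, 9 of complex III, cytochrome c (Cycs), 16 of complex IV and 14 of complex V. All 44 were found among the 49315 genes listed for each library.

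RNA came from brown fat of male C57Bl/6J mice with diet-induced obesity. The mice were 14 weeks old, had 3 weeks to acclimate and ate a diet with 60% fat until they weighed about 50 g. They were housed singly and not at thermoneutrality. The vehicle group held 4 mice and the cotadutide group 5, each injected under the skin every day for 28 days. Cotadutide is a peptide that activates the glucagon-like peptide 1 receptor and the glucagon receptor. Both groups were obese and on the diet, and the comparison asks which brown fat genes changed with the drug. Polyadenylated RNA was sequenced, 1 library per mouse.

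As background, complex II (succinate dehydrogenase) feeds electrons from the citric acid cycle into ubiquinone. Complex III moves them on to cytochrome c, and complex IV (cytochrome c oxidase) hands them to oxygen. Complexes III and IV pump protons. Complex V lets protons back through a ring of c subunits, and the turning of that ring drives ATP synthesis. In brown fat the uncoupling protein Ucp1 offers protons another way back and releases the energy as heat, and mouse brown fat is known for abundant respiratory chain and little ATP synthase. Complexes III to V hold subunits encoded in the mitochondrial genome, whereas all of complex II is nuclear. Several complex IV subunits exist as a form found in most tissues and a form typical of heart, skeletal muscle or brown fat.

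Library totals ranged from 10.8 to 25.1 M counts (M, mega). Levels are given in CPM, a gene's counts per mega of scaled library counts. Pairs of the form a ± b are means with their SD, vehicle mice (n = 4) first and cotadutide mice (n = 5) second. Genes were tested by edgeR's quasi-likelihood test over 14747 genes with Benjamini-Hochberg adjustment, and a gene was called at an adjusted p of 0.05. Brown fat markers were present in every library: Ucp1 spanned 3762 to 6048 CPM in vehicle mice and 4879 to 6693 CPM in cotadutide mice. Of 10 brown adipocyte markers 2 rose (Cidea and Kcnk3), 0 fell and all 10 had a positive fold change (median fold 1.35). Skeletal muscle markers were present too, and more so in vehicle mice. The sum of 16 muscle markers was 25190 to 52110 CPM in vehicle mice and 5678 to 21310 CPM in cotadutide mice. Of these 16, 10 fell, 0 rose and none was at 0 CPM on average in either group. Of 7 macrophage markers 6 fell, and of 6 markers shared by all adipocytes 3 rose. All 6 shared markers had a positive fold change (median fold 1.255). Their sum was 13090 to 14950 CPM in vehicle mice and 17630 to 20890 CPM in cotadutide mice, without overlap. Of 5 white adipocyte markers 3 fell (Lep, Npr3 and Mest) and 0 rose. Their sum was 240.5 CPM in vehicle mouse 4, 707 to 772.6 CPM in the other vehicle mice and 120.4 to 292.3 CPM in cotadutide mice. No fibroblast marker was called, though all 5 had lower means (median fold 0.631, 3 at an unadjusted p under 0.05). No endothelial marker was called either (4 genes, median fold 1.03). None of the macrophage, adipocyte, fibroblast or endothelial lists was tested for its part in the subunit values. In whole tissue, fewer cells of a type and less RNA per cell cannot be told apart.

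Subunit mRNAs of complexes II to V were higher under cotadutide for most members, with the highest median in complex IV. All 44 members passed the filter on low counts and were tested: 25 rose, 0 fell and 19 were not called. Among all genes tested, 9.31% were called higher and 9.34% lower. The median member was 1.31-fold higher (median log2 fold change 0.39, against 0.0031 over all genes), and 41 of 44 had a positive fold change. In complex II 2 of 4 genes rose, in complex III 6 of 9, in complex IV 13 of 16 and in complex V 4 of 14, while Cycs was not called. The median fold was 1.21 in complex II, 1.31 in complex III, 1.40 in complex IV and 1.19 in complex V. The 25 genes that rose did so by 1.26-fold to 1.90-fold, with edgeR adjusted p from 0.0147 to 0.0478. For 18 members every cotadutide library lay above every vehicle library, which held for 8.06% of all genes tested. Summed over the members, subunit mRNA made up 37980 to 46660 CPM in vehicle mice and 48760 to 64800 CPM in cotadutide mice, so the sums of the groups did not overlap.

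**Figure D1:**
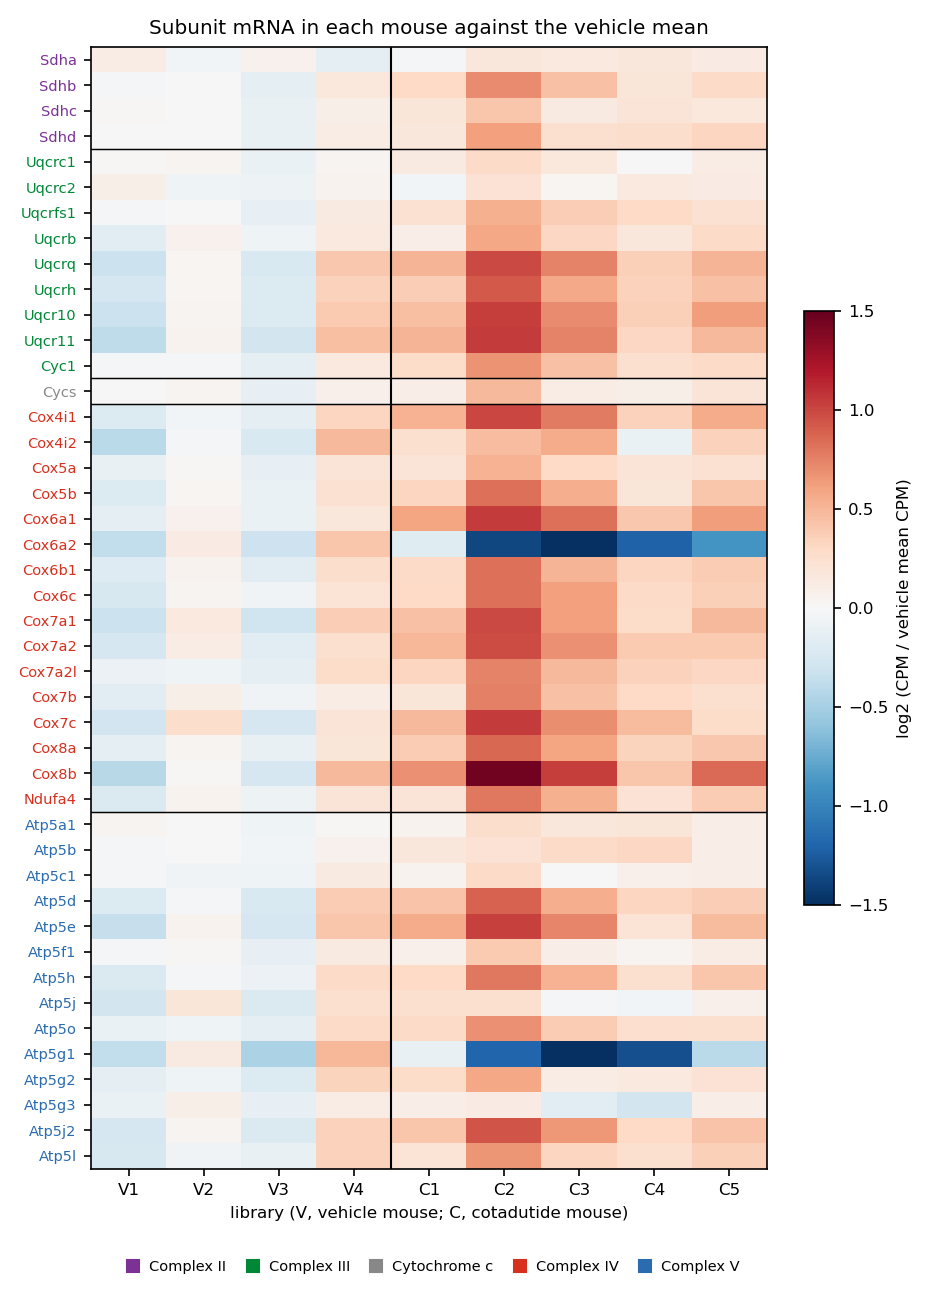
Level of each of the 44 subunit mRNAs (rows, label colour by complex) in each mouse (columns, V for vehicle and C for cotadutide), as log2 of CPM over the vehicle mean. Columns V4 and C2 are the reddest of their groups, and the rows of Cox6a2 and Atp5g1 are blue in C2 to C5.

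Within each group, the same mouse was highest for most members. Vehicle mouse 4 had the highest vehicle value for 40 of 44 members, and cotadutide mouse 2 the highest cotadutide value for 40 of 44. Vehicle mouse 4 did not resemble the cotadutide mice for every member. It was highest of all mice for Cox6a2 (201 CPM) and Atp5g1 (174 CPM), which had lower means under cotadutide. The median member of vehicle mouse 4 lay 0.23 above the vehicle mean on the log2 scale, close to the 0.25 of cotadutide mouse 4, the lowest of its group. The median member of cotadutide mouse 2 lay 0.71 above it. Without both of these mice, a choice made after the data were seen, 29 members rose and 0 fell, and 11% of all genes were called higher. The count of members that rose was 0, 0, 1 and 30 without vehicle mouse 1, 2, 3 and 4 in turn. It was 21, 4, 2, 22 and 15 without cotadutide mouse 1, 2, 3, 4 and 5 in turn. In those fits the share of all genes called higher also moved, from 0.283% without vehicle mouse 2 to 14.3% without vehicle mouse 4. In each of the 9 fits that left out 1 mouse, at least 41 members kept a positive fold change, and the median member changed by 0.30 to 0.50 on the log2 scale. With the muscle marker level of each library as a covariate, no gene of all 14747 was called (2013 at an unadjusted p under 0.05), and the members had a median log2 fold change of 0.35 with 43 positive. In that fit 4 members had an unadjusted p under 0.05.

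**Figure D2:**
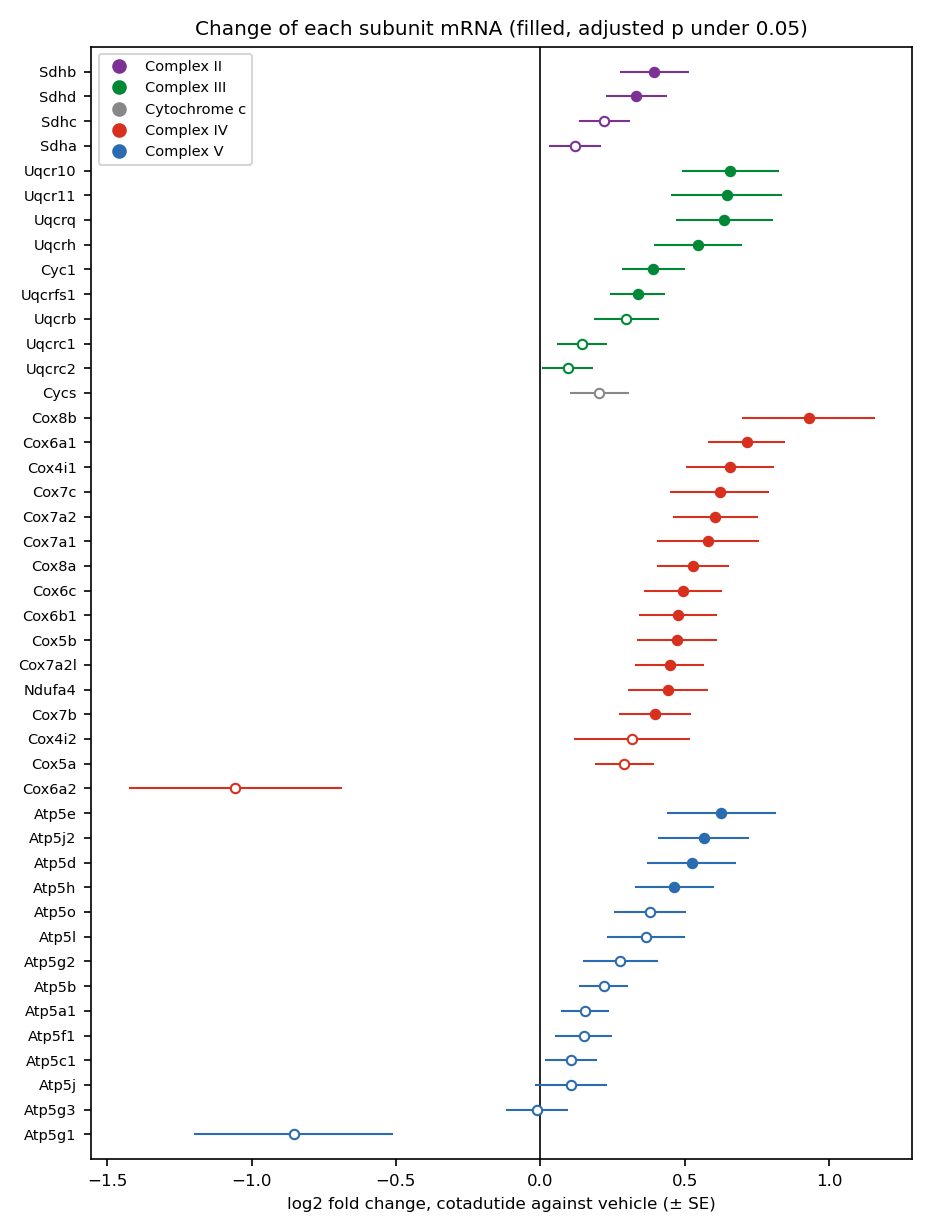
Log2 fold change of each member, cotadutide against vehicle, with its standard error (SE) as the bar, grouped by complex. Filled points passed the edgeR adjusted p of 0.05. Cox8b lies farthest to the right at 0.93, and Cox6a2 and Atp5g1 lie far to the left with open points and wide bars.

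Complex II is the one complex here that is also a citric acid cycle enzyme. Its flavoprotein Sdha and iron-sulfur protein Sdhb hold the catalytic site, and Sdhc and Sdhd anchor them in the membrane. Sdhb was the most abundant of the 4 per length of mRNA, at 946 CPM per kb in vehicle mice. Its level was 1055, 1080, 982 and 1203 CPM in the vehicle mice and 1327, 1766, 1465, 1226 and 1319 CPM in the cotadutide mice. All 5 cotadutide values lay above the 4 vehicle values, and Sdhb rose 1.32-fold (1080 ± 91.8 against 1421 ± 211 CPM, log2 change 0.40 with SE 0.12, adjusted p = 0.0393 by edgeR). Sdhd measured 594, 596, 555 and 649 CPM in vehicle mice and 672, 920, 708, 718 and 749 CPM in cotadutide mice. These groups did not overlap either, and Sdhd rose 1.26-fold (edgeR adjusted p = 0.0478). Sdhc and Sdha were not called (1.17-fold and 1.09-fold, edgeR adjusted p 0.0981 and 0.362).

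The 4 complex III genes with the highest fold changes, Uqcr10, Uqcr11, Uqcrq and Uqcrh, encode small subunits. Uqcr10 and Uqcrq encode small membrane-bound subunits. Uqcr10 measured 399, 513, 434 and 655 CPM in vehicle mice and 685, 1024, 819, 643 and 775 CPM in cotadutide mice. Only cotadutide mouse 4 lay below the highest vehicle mouse, and the mRNA rose 1.58-fold (500 ± 114 against 789 ± 149 CPM, log2 change 0.66 with SE 0.17, adjusted p = 0.0256 by edgeR). Uqcrq was the most abundant complex III mRNA per kb, rising from 2292 to 3565 CPM per kb in mean. It measured 743, 951, 793 and 1226 CPM in vehicle mice and 1319, 1837, 1552, 1193 and 1319 CPM in cotadutide mice. Again cotadutide mouse 4 lay below vehicle mouse 4, and Uqcrq rose 1.56-fold (log2 change 0.64 with SE 0.17, adjusted p = 0.0271 by edgeR). Uqcr11 and Uqcrh, also small subunits, rose 1.57-fold and 1.46-fold. The electron carriers rose too: Cyc1, which carries the heme of cytochrome c1, by 1.31-fold and Uqcrfs1, the Rieske iron-sulfur protein, by 1.26-fold. The core proteins Uqcrc1 and Uqcrc2 and the small subunit Uqcrb were not called (1.10-fold, 1.07-fold and 1.23-fold, edgeR adjusted p 0.259, 0.462 and 0.0836). Complex III genes other than Uqcr10 and Uqcrq are named here to complete the complex.

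Cytochrome c, the soluble carrier between complexes III and IV, did not pass the test. Cycs measured 714, 737, 657 and 756 CPM in vehicle mice and 767, 1001, 773, 764 and 821 CPM in cotadutide mice. The groups did not overlap, though 764 and 756 CPM were close, and the mean was 1.15-fold higher (edgeR adjusted p = 0.175).

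Among the members, complex IV had the most calls and the largest rise. The 3 genes not called were Cox4i2, Cox5a and Cox6a2. Cox4i1, the form of subunit 4 found in most tissues, measured 1805, 2013, 1874 and 2601 CPM in vehicle mice and 2971, 4151, 3554, 2627 and 3045 CPM in cotadutide mice. The groups did not overlap, with cotadutide mouse 4 just above vehicle mouse 4, and Cox4i1 rose 1.58-fold (2073 ± 362 against 3270 ± 594 CPM, log2 change 0.66 with SE 0.15, adjusted p = 0.02 by edgeR). Cox6a1, the common form of subunit 6a, had the smallest p of all members. It measured 1062, 1233, 1098 and 1321 CPM in vehicle mice and 1771, 2442, 2083, 1564 and 1813 CPM in cotadutide mice. Its groups did not overlap, and Cox6a1 rose 1.64-fold (log2 change 0.72 with SE 0.13, adjusted p = 0.0147 by edgeR). The other genes that rose outside the isoform pairs were Cox5b, Cox6b1, Cox6c, Cox7b, Cox7c, Cox7a2l and Ndufa4, by 1.32-fold to 1.54-fold. Ndufa4 was long counted with complex I and is now placed in complex IV.

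Among the members, complex IV subunits 4, 6a, 7a and 8 each have a pair of isoform genes. The promoters of those with a RefSeq entry are printed here because the ratios below compare these genes. Cox8b and Cox7a1 are the forms typical of heart, muscle and brown fat, and Cox8a, Cox7a2 and Cox6a1 are the forms found in most tissues. Each sequence runs 5′ to 3′ on the gene's strand from 250 bases before the RefSeq start to 30 bases after it, in build GRCm38.p6. Capitals mark matches on either strand to any of 7 motifs. The letters searched were CCGGAAG for ETS factors and GCATGCGC for NRF1. For the estrogen-related receptors they were AAGGTCA and for the factor YY1 they were AAGATGG. For SP1 they were GGGCGG. The TATA box was searched as TATAAA, and the box known as CCAAT by its own letters.
Cox8b: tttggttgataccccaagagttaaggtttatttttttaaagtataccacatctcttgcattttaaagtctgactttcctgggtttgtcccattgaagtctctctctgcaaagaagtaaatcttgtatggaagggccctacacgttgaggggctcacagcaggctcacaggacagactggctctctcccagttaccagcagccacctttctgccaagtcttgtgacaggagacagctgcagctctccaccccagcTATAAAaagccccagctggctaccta
Cox8a: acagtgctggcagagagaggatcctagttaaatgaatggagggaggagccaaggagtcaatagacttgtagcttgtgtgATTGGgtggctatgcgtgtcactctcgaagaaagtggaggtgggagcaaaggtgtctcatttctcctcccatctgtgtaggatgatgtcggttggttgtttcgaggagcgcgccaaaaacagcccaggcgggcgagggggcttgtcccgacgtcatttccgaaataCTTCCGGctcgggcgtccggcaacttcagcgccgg
Cox7a1: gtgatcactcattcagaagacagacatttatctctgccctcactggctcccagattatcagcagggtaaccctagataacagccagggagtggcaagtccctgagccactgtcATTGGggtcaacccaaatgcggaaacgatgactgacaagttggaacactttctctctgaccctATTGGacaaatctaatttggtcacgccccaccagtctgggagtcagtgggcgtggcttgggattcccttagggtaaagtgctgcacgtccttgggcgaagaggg
Cox7a2: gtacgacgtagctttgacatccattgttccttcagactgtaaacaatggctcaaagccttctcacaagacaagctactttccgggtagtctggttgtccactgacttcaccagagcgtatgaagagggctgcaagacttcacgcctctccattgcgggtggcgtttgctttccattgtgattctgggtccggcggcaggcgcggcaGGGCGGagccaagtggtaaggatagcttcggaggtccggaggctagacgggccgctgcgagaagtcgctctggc
Cox6a1: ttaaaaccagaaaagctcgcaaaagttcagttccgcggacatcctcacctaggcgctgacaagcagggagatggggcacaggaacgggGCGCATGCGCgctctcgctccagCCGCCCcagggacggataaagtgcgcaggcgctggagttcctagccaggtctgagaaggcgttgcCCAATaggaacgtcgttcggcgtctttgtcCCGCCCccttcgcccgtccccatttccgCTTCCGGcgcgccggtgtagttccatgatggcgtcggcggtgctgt
Cox8b lies at chr7:140900417-140900696 (minus strand), Cox8a at chr19:7217587-7217866 (minus strand), Cox7a1 at chr7:30183921-30184200 (plus strand), Cox7a2 at chr9:79759824-79760103 (minus strand) and Cox6a1 at chr5:115348929-115349208 (minus strand), where the coordinates are those of the printed windows. The Cox8b window holds TATAAA, which begins at base 5 after the RefSeq start, and none of the ETS, NRF1, estrogen-related receptor or YY1 letters. The Cox8a window holds an ETS match 5 bases before the start, and a further one outside the printed stretch begins at base 33 after it. The Cox6a1 window holds an ETS match and overlapping NRF1 matches on both strands, since that motif nearly reads the same on each. The Cox7a1 window holds CCAAT matches and the Cox7a2 window an SP1 match.

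Both forms of subunit 8 rose, and Cox8b had the largest fold change of the 25 genes that rose. Cox8b measured 1282, 1724, 1428 and 2380 CPM in vehicle mice and 2741, 4654, 3484, 2269 and 3073 CPM in cotadutide mice. Cotadutide mouse 4 lay below vehicle mouse 4, and the other 4 cotadutide mice lay above all vehicle mice. Cox8b rose 1.90-fold (1704 ± 487 against 3244 ± 905 CPM, log2 change 0.93 with SE 0.23, adjusted p = 0.0247 by edgeR). Per kb it was the most abundant of all 44 members in both groups, at 4733 CPM per kb in vehicle mice and 9011 in cotadutide mice. Cox8a measured 734, 831, 747 and 915 CPM in vehicle mice and 1051, 1467, 1219, 1016 and 1066 CPM in cotadutide mice, without overlap, and rose 1.44-fold (edgeR adjusted p = 0.0214). The ratio of Cox8b to Cox8a counts was 1.75, 2.08, 1.91 and 2.60 in vehicle mice and 2.61, 3.17, 2.86, 2.23 and 2.88 in cotadutide mice. The mean ratio was 1.33-fold higher under cotadutide (log2 difference 0.41), with an exact two-sided permutation p of 0.0318 that did not hold after adjustment over the 6 ratios tested (0.0595).

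Both forms of subunit 7a rose by nearly the same factor. Cox7a1 measured 691, 956, 701 and 1114 CPM in vehicle mice and 1173, 1720, 1323, 1045 and 1210 CPM in cotadutide mice. Cotadutide mouse 4 again lay below vehicle mouse 4, and Cox7a1 rose 1.5-fold (865 ± 206 against 1294 ± 258 CPM, edgeR adjusted p = 0.0431). Cox7a2 measured 371, 481, 398 and 525 CPM in vehicle mice and 627, 872, 714, 582 and 584 CPM in cotadutide mice, without overlap. It rose 1.52-fold (edgeR adjusted p = 0.022). Their count ratio spanned 1.76 to 2.12 in vehicle mice and 1.80 to 2.07 in cotadutide mice, with a log2 difference of -0.013 (exact two-sided permutation p = 0.825). The SDs of the log2 ratio were 0.12 and 0.082. Per kb, Cox7a1 was 3.23 times Cox7a2 in vehicle mice and 3.20 times in cotadutide mice.

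Subunit 6a split: the common form rose and the form typical of heart and muscle had a lower mean. Cox6a2 measured 117, 164, 122 and 201 CPM in vehicle mice and 133, 58.5, 24.4, 65.1 and 80.9 CPM in cotadutide mice. Cotadutide mouse 1 lay among the vehicle mice and the other 4 lay below them. Its mean was 2.08 times lower (151 ± 39.6 against 72.4 ± 39.7 CPM, log2 change -1.06 with SE 0.37), which did not pass the test (edgeR adjusted p = 0.0674). Within each library, the ratio of Cox6a2 to Cox6a1 counts was 0.110, 0.133, 0.111 and 0.152 in vehicle mice and 0.0751, 0.0240, 0.0117, 0.0417 and 0.0446 in cotadutide mice. The groups did not overlap, and the mean ratio was 3.79 times lower under cotadutide (log2 difference -1.92, exact two-sided permutation p = 0.0159, 0.0476 after adjustment over 6 ratios). That p counts every reordering of the mice with a difference of at least this size in either direction. If the one-sided p is doubled instead, a definition tried after the data were seen, the adjusted p is 0.0571.

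Subunit 4 is mostly the common form here. Cox4i2, a form described in lung and in low oxygen, was the least abundant member per kb, at 6.18 CPM per kb in vehicle mice. It measured 3.38, 4.44, 3.83 and 6.32 CPM in vehicle mice and 5.30, 6.22, 6.62, 4.18 and 5.71 CPM in cotadutide mice. The groups overlapped and Cox4i2 was not called (log2 fold change 0.32, edgeR adjusted p = 0.276). Its ratio to Cox4i1 was 0.00189, 0.00222, 0.00206 and 0.00244 in vehicle mice and 0.00179, 0.00151, 0.00187, 0.00160 and 0.00189 in cotadutide mice. Vehicle mouse 1 lay within the cotadutide range. The mean ratio was 1.24 times lower (log2 difference -0.31, exact two-sided permutation p = 0.0159, 0.0476 after adjustment over 6 ratios, and 0.0571 with the doubled p). Without any 1 of the mice neither this ratio nor that of Cox6a2 to Cox6a1 passed after adjustment. The log2 differences were -0.37 to -0.25 and -2.22 to -1.55. Leaving out a mouse raises the smallest possible p. Both ratios at that p would not pass adjustment over 6 ratios unless others reached it too. These fits therefore cannot decide whether the ratios hold.

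**Figure D3:**
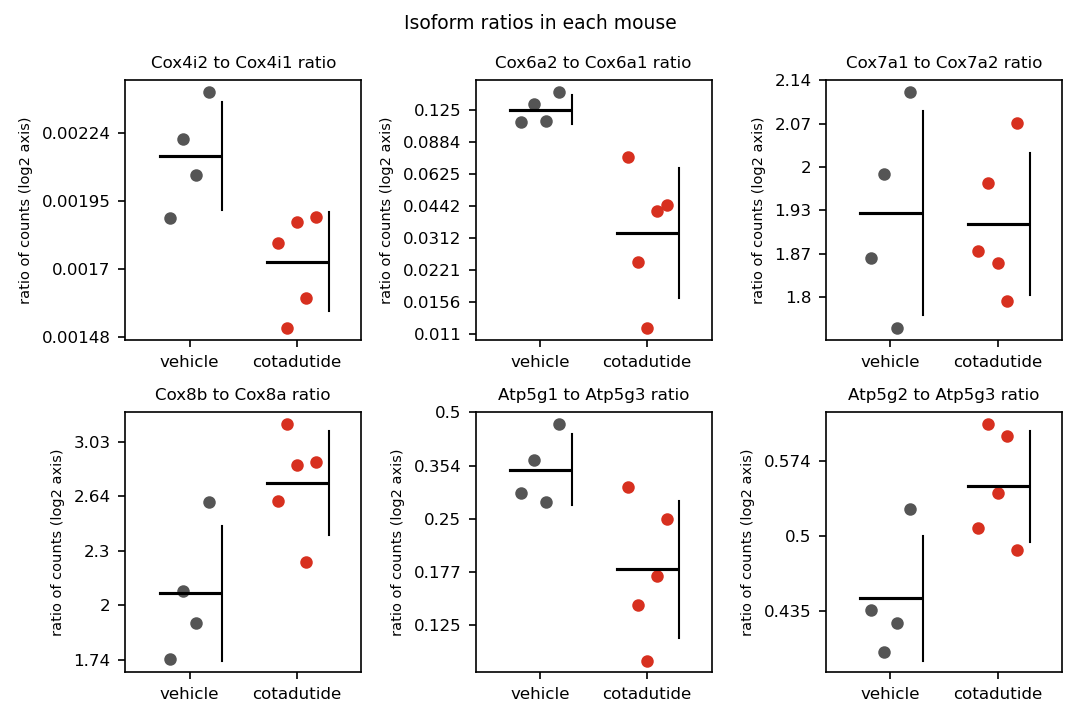
Ratio of the counts of 2 isoform genes in each mouse (points, log2 axes), with the mean of the log2 ratio as a horizontal line and its SD as a vertical bar. The Cox6a2 to Cox6a1 panel shows all 5 cotadutide mice below the 4 vehicle mice, and the Cox7a1 to Cox7a2 panel shows groups that overlap.

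In complex V 4 of the 14 genes rose. Its catalytic head, F1, is built from alpha (Atp5a1), beta (Atp5b), gamma (Atp5c1), delta (Atp5d) and epsilon (Atp5e) subunits. Atp5b was the most abundant complex V mRNA per kb, at 3165 CPM per kb in vehicle mice and 3687 in cotadutide mice. It measured 5978, 6080, 5877 and 6325 CPM in vehicle mice and 6828, 7061, 7428, 7514 and 6490 CPM in cotadutide mice. The groups did not overlap, but the difference of 1.17-fold was not called (6065 ± 192 against 7064 ± 424 CPM, log2 change 0.22 with SE 0.085, adjusted p = 0.0888 by edgeR). DESeq2 called it, at an adjusted p of 0.00942. Atp5d measured 641, 729, 634 and 961 CPM in vehicle mice and 994, 1369, 1085, 925 and 954 CPM in cotadutide mice. Cotadutide mice 4 and 5 lay just below vehicle mouse 4, and Atp5d rose 1.44-fold (edgeR adjusted p = 0.0368). Atp5e rose 1.54-fold, while Atp5a1 and Atp5c1 were not called (1.11-fold and 1.08-fold).

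The membrane part and the stalk held the other calls. Atp5j2, subunit f at the membrane, measured 606, 743, 624 and 920 CPM in vehicle mice and 963, 1386, 1138, 891 and 976 CPM in cotadutide mice. One cotadutide mouse, mouse 4, lay below vehicle mouse 4, and Atp5j2 rose 1.48-fold (723 ± 145 against 1071 ± 198 CPM, log2 change 0.57 with SE 0.16, adjusted p = 0.0324 by edgeR). In the peripheral stalk, which holds F1 still while the ring turns, Atp5h rose 1.38-fold. The stalk genes Atp5f1, Atp5j and Atp5o and the membrane gene Atp5l were not called, with folds from 1.08 to 1.30. Atp5a1, Atp5c1, Atp5e, Atp5f1, Atp5h, Atp5j, Atp5o and Atp5l are named here to complete the complex.

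The c ring had no calls. Atp5g1, Atp5g2 and Atp5g3 encode precursors of the same mature c subunit protein with different import sequences. Atp5g1 is known as the gene whose level limits ATP synthase in mouse brown fat. It measured 95.6, 135, 88.4 and 174 CPM in vehicle mice and 114, 54.0, 30.7, 49.4 and 92.9 CPM in cotadutide mice. Cotadutide mice 1 and 5 lay within the vehicle range, the other 3 lay below it, and the mean was 1.81 times lower (123 ± 39.5 against 68.2 ± 34.2 CPM, log2 change -0.85 with SE 0.35, adjusted p = 0.103 by edgeR). Atp5g2 measured 141, 149, 135 and 197 CPM in vehicle mice and 189, 232, 168, 173 and 181 CPM in cotadutide mice, which overlapped (1.21-fold, edgeR adjusted p = 0.151). Atp5g3 measured 324, 368, 317 and 375 CPM in vehicle mice and 372, 378, 310, 287 and 372 CPM in cotadutide mice, also with overlap (0.993-fold, edgeR adjusted p = 0.953). Summed, the 3 genes gave 541 to 745 CPM in vehicle mice and 508 to 675 CPM in cotadutide mice.

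The makeup of c subunit mRNA differed in its values, but no ratio passed the test after adjustment. Atp5g1 held 16.3% to 23.3% of the counts of the 3 genes in vehicle mice and 6.04% to 16.9% in cotadutide mice, and Atp5g2 held 22.8% to 26.4% and 28.0% to 35.0%. The ratio of Atp5g1 to Atp5g3 was 1.92 times lower in mean (log2 difference -0.94, exact two-sided permutation p = 0.0556, adjusted 0.0667). The ratio of Atp5g2 to Atp5g3 was 1.23-fold higher (log2 difference 0.30, exact two-sided permutation p = 0.0397, adjusted 0.0595).

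Cox6a2 and Atp5g1 varied between mice like the muscle markers. Among cotadutide mice the muscle marker sum was 21310, 9852, 5678, 13550 and 21100 CPM in mice 1 to 5, and Cox6a2 had the same order, from 133 CPM in mouse 1 down to 24.4 CPM in mouse 3. Atp5g1 was likewise highest in mouse 1 and lowest in mouse 3. Vehicle mouse 4 was highest in the muscle sum (52110 CPM), in Cox6a2 and in Atp5g1. Slc25a4, the adenine nucleotide carrier typical of heart and muscle, fell 1.58 times without overlap between groups (edgeR adjusted p = 0.0288). With the muscle marker level as a covariate the log2 fold changes of Cox6a2 and Atp5g1 were 0.26 and 0.36. The marker level itself differed between the groups without overlap, so the share of the muscle level and that of the treatment in these values cannot be told apart.

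**Figure D4:**
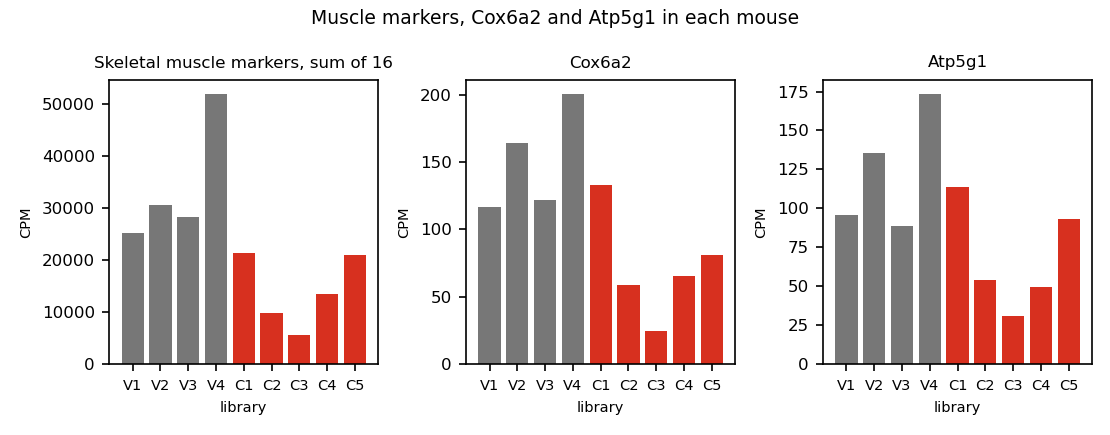
CPM of the sum of 16 skeletal muscle markers, of Cox6a2 and of Atp5g1 in each library (bars from 0, grey for vehicle and red for cotadutide). In all 3 panels V4 is the tallest bar and C3 the shortest.

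Shorter subunit mRNAs tended to have larger fold changes. The mRNAs of the members are 360 to 3171 bases long in the GENCODE M21 annotation. Across the 44 genes, length and log2 fold change had a Spearman rho of -0.60 (Pearson's r -0.30), and without Cox6a2 and Atp5g1 a rho of -0.67 (r -0.67). These genes were measured in the same 9 libraries and are not independent, so this is a description. Of 29 members under 1 kb 19 rose, with a median log2 fold change of 0.49. Of 15 members of 1 kb or more 6 rose, with a median of 0.22. Other coding genes with a mean of at least 20 CPM also had lower medians with greater length: the median log2 fold change was 0.32 for 483 genes under 1 kb, 0.15 for 1392 genes of 1 to 2 kb, 0.022 for 2288 genes of 2 to 4 kb and -0.058 for 1694 longer genes. Of these 35.2%, 24.1%, 12.6% and 6.14% were called higher. The median of the short genes relative to the vehicle mean was highest in cotadutide mouse 2 (0.60) and was also raised in vehicle mouse 4 (0.26), the mice with the highest subunit mRNAs. A correction in the fit used another length, that of all exons of a gene as listed with the counts. It can be far longer than the mRNA (6443 against 544 bases for Atp5l) or equal to it (360 bases for Cox8b). With this correction 13 members rose and 1, Cox6a2, fell (edgeR adjusted p = 0.0404), and 8.42% of all genes were called higher. The median log2 fold change of the members was 0.24. The part of mRNA length in the calls was not tested. Members that were more abundant per kb in vehicle mice also had larger fold changes (Spearman rho 0.66, Pearson's r 0.46). The level per kb is divided by mRNA length, so this relation and that of length are not independent.

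**Figure D5:**
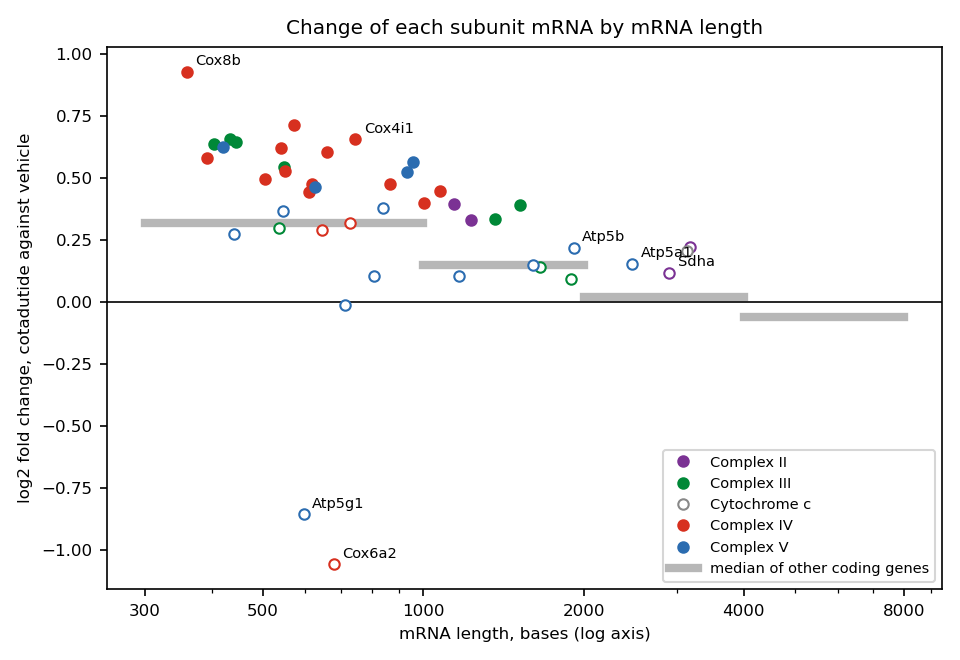
Log2 fold change of each member against the length of its mRNA (log axis), coloured by complex and filled where called. Grey lines give the median of other coding genes in each length class (the outer classes are open-ended), from 0.32 under 1 kb to -0.058 over 4 kb.

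The complexes were also compared within each mouse. Taking in each library the median of each complex relative to the vehicle mean, complex IV minus complex V spanned -0.049 to 0.058 on the log2 scale in vehicle mice and 0.093 to 0.36 in cotadutide mice. These ranges did not overlap. Complex III minus complex II spanned -0.16 to 0.054 in vehicle mice and 0.066 to 0.245 in cotadutide mice, again without overlap. Complex IV minus complex III spanned -0.039 to 0.091 and 0.024 to 0.17, with overlap. The ranges of the other 3 pairs overlapped too: complex IV minus complex II (-0.20 to 0.15 and 0.13 to 0.40), complex III minus complex V (-0.14 to 0.044 and 0.038 to 0.21) and complex V minus complex II (-0.16 to 0.20 and -0.051 to 0.059). The differences between complexes were not tested. With the muscle covariate the median log2 fold changes were 0.26 in complex II, 0.29 in complex III, 0.39 in complex IV and 0.36 in complex V, against 0.28, 0.39, 0.49 and 0.25 without it, so complexes IV and V lay closer together. The median mRNA length was 2065.5 bases in complex II, 547 in complex III, 631.5 in complex IV and 823.5 in complex V. With the correction for the exon length listed with the counts, the median log2 fold changes were 0.18, 0.21, 0.29 and 0.21. That length is not the mRNA length, so the complexes were not compared with mRNA length corrected.

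The mitochondrially encoded partners of these complexes were partly called. Of 6 such mRNAs 3 rose: mt-Co2 by 1.30-fold, mt-Co3 by 1.40-fold and mt-Atp6 by 1.38-fold. These 3 calls are uncertain, since the genes have 2, 1 and 1 near-identical nuclear copies, at up to 100% identity. The longest aligned stretches were 684, 783 and 678 bases. Summed per gene, the copies took 11944, 5119 and 6611 counts beside 4860, 6794 and 5724 for the genes. The abundant mt-Cytb, of complex III, measured 40710 to 46820 CPM in vehicle mice and 47080 to 62750 CPM in cotadutide mice and was not called (1.23-fold, edgeR adjusted p = 0.0711). The abundant mt-Co1, of complex IV, was not called either (1.08-fold, edgeR adjusted p = 0.469).

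Genes that build or serve these complexes were also measured. Among all genes tested, 9.31% were called higher and 9.34% lower. Of 28 assembly factors tested 4 rose and 1 fell, with a median fold of 1.12. Cox17, a copper chaperone for complex IV, rose 1.66-fold (120 ± 22.9 against 199 ± 32.0 CPM, edgeR adjusted p = 0.0163), and Uqcc3, an assembly factor of complex III, rose 1.57-fold (edgeR adjusted p = 0.0258). Surf1 and Coa7, of complex IV assembly, rose 1.22-fold and 1.27-fold, and Atpaf1, which assembles F1, fell 1.24 times. Of 7 further subunits and associated genes tested 2 rose, Cox6b2 and Atp5k. Of 4 genes for nucleotide, phosphate and proton entry 0 rose and 1, Slc25a4, fell, and Ucp1 was not called (1.23-fold, edgeR adjusted p = 0.159). Of 10 regulators of mitochondrial genes 2 rose: Ppargc1b, a coactivator, by 1.53-fold (edgeR adjusted p = 0.0198) and Esrra, an estrogen-related receptor, by 1.28-fold (edgeR adjusted p = 0.0338). Nrf1, Gabpa, Gabpb1 and Yy1, whose binding letters were searched above, were not called.

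Promoter windows were at hand for 33 of the 44 members and were set beside those of 27025 genes, over 250 bases before the start to 50 after it. The ETS letters were in the windows of 33.3% of members and 9.93% of all genes, and the NRF1 letters in 21.2% and 3.05%. The ETS letters were found for 9 of the 21 members called higher and 2 of the 12 not called, and the NRF1 letters for 3 and 4. The estrogen-related receptor letters were in 12.1% of members and 5.38% of all genes, the YY1 letters in 9.09% and 7.28%, and CCAAT in 54.5% and 41.1%. SP1 letters (33.3% and 38.2%) and TATAAA (6.06% and 15.7%, Cox8b and Atp5l) were less frequent among members. These are matches of letters, not sites known to be bound, and they were not tested.

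Some members share sequence with other genes, which limits how exactly their reads can be assigned. The mRNAs of 14 members have a near-identical pseudogene (at least 95% over 150 bases), whose counts came to 0.023% to 2.86% of the member's own, most for Atp5l. Exons of 12 members overlap another gene, mainly on the opposite strand, and for the counting no strand setting is given in the sources used here. Of the 14 members with such a pseudogene 6 rose, of the 12 with overlapping exons 3 rose, and of 24 members with neither 17 rose. These shares were not tested against each other. In the mm10 coordinates of the files, Cox8b (ENSMUSG00000025488) lies on chromosome 7 from 140898945 to 140900446 and Cox6a2 (ENSMUSG00000030785) on chromosome 7 from 128205435 to 128206387. Cox6a1 (ENSMUSG00000041697) lies on chromosome 5 from 115345642 to 115348981 and Atp5g1 (ENSMUSG00000006057) on chromosome 11 from 96068852 to 96075670. Cox6a2 shares 70 exon bases with Itgad on the opposite strand, which had 271 counts in all libraries against 18648 for Cox6a2.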

How the data were processed

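RNA of 9 libraries (4 vehicle, 5 cotadutide) was analysed from the deposited raw counts of reads per Ensembl gene, 1 table per library. Tools listed in the submitters' processing notes are STAR 2.5.2b, Subread 1.5.2 with featureCounts, Trimmomatic 0.36 and bcl2fastq 2.17, and the build is mm10. Polyadenylated RNA went into NEBNext Ultra libraries after the fat layer was removed, per the labels' protocols, so values refer to that RNA. For the annotation release and strand setting, no value is given in the sources used here.

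Of 49315 identifiers 48970 were matched to a symbol, and the other 345 held 0.0310% of counts. Filtering with filterByExpr kept 14747 genes with 99.87% of the counts. Groups came from the labels. Library sizes were scaled by TMM (trimmed mean of M values, factors 0.914 to 1.06) and the counts tested with edgeR 4.0.16 in R 4.3.3 (robust glmQLFit, glmQLFTest, group as the only term, all 9 libraries), with Benjamini-Hochberg adjustment at 0.05. The biological coefficient of variation was 17.0%. SE is the log2 fold change over the square root of F. Ratios of isoform counts, with 0.5 added, were tested by exact permutation, two-sided, over 126 divisions of the mice (smallest possible p 0.00794) and adjusted over 6 ratios. Fits were tested on simulated data. Libraries of a group differed by more than counting noise (chi-square per degree of freedom at least 12.7), and each was 1 mouse.

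The members, lists and tests were chosen with earlier results of these data known. By the rule for named genes, values in every library are given for the 8 genes of the 4 Cox isoform pairs, the 3 Atp5g genes, the most abundant member per kb of each complex and the 2 called members of each complex with the smallest p. Levels per kb use 1 GENCODE M21 transcript per gene, chosen by annotation rank, then shortness. Copies were sought with BLAST 2.17.0. Promoters are RefSeq's (GRCm38.p6). Alternatives were other scalings and filters, DESeq2 1.42.0, limma-voom (limma 3.58.1), a length correction, a muscle covariate, a block by mouse number, and leaving out each mouse. The length correction used the exon length listed with the counts, not the mRNA length. Markers of cardiac or smooth muscle (4 tested, none called) and of brown adipocytes (10 tested, 2 higher) were also measured.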

Additional observations from a re-analysis of the deposited data

Results flagged for a closer look

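In 7 of the 100 groups of values checked, 1 mouse lay far from the others of its group by Dixon's criterion, and chance gives about 1 in 20. Cotadutide mouse 2 stood above its group for Sdhc (778 CPM), Cycs (1001 CPM), Atp5f1 (1042 CPM) and Atp5o (1071 CPM). Vehicle mouse 4 stood above its group for Cox7a2l (227.0 CPM) and Atp5o (809 CPM). Cotadutide mouse 1 stood below its group for Sdha (1985 CPM). Of these genes Cox7a2l was called higher in the comparison of the groups, and the other 5 were not.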

How the results depend on the processing

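Members higher numbered 17 to 28 with other scalings, filters, DESeq2 or limma-voom, 13 with the length correction, 0 with the muscle covariate and 0 to 30 when 1 mouse was left out. The share of all genes called higher moved too. It was 3.15% without a filter (17 members), 11.3% with DESeq2 (28 members), 8.42% with the length correction and 0% with the muscle covariate. When 1 mouse was left out it ranged from 0.283% to 14.3%. Members lower numbered 1 with DESeq2 (Atp5g1), 1 with limma-voom (Cox6a2), 1 with the length correction (Cox6a2) and 0 to 2 when 1 mouse was left out, 2 without cotadutide mouse 1 (Cox6a2 and Atp5g1). The Complex III median log2 difference was 0.21 with the length correction. With the muscle covariate the log2 fold changes of Sdha (-0.0092), Cox6a2 (0.26), Atp5g1 (0.36) and Atp5g3 (0.17) had the other sign. That of Atp5g3 ranged from -0.066 to 0.031 when 1 mouse was left out. The cause was not tested. With library totals in place of TMM factors, all genes divided into 1046 higher and 1658 lower, against 1373 and 1378, with a median log2 shift of -0.066. The Cox4i2 to Cox4i1 ratio passed the threshold neither with 5 counts added (-0.31) nor with the doubled p (-0.31). The Cox6a2 to Cox6a1 ratio likewise passed with neither (-1.92 and -1.92). Without any 1 mouse neither ratio passed (-0.37 to -0.25 and -2.22 to -1.55). With fewer mice the smallest possible p is too high for those fits to decide. The Cox7a1 to Cox7a2 ratio ranged from -0.057 to 0.034 without 1 mouse. A replicate block by mouse number gave 3 members higher, with 3.5% of all genes called higher. It gave ratios of -0.34 for Cox4i2 to Cox4i1 and -2.03 for Cox6a2 to Cox6a1 that could not pass with 4 pairs (smallest p 0.125). The numbers name separate animals: correlations of same-numbered mice were 0.14, -0.04, 0.023 and -0.011, and 1 of 4 mice in each group correlated best with its own number. Depth limits Cox4i2 most, with 806 counts over all libraries.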
